A study of Homo sapiens with 12 samples.

Results

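The genes described here are feedback brakes of the MAP kinase pathway, namely the dual-specificity phosphatases DUSP2 (ENSG00000158050_at), DUSP4 (ENSG00000120875_at), DUSP5 (ENSG00000138166_at), DUSP6 (ENSG00000139318_at) and DUSP10 (ENSG00000143507_at), the Sprouty gene SPRY2 (ENSG00000136158_at) and the Sprouty-related gene SPRED1 (ENSG00000166068_at), together with EGR1 (ENSG00000120738_at), an immediate-early transcription factor gene that ERK signalling induces. They were picked by name, and all 8 were found by their Ensembl gene ID among the 17710 genes of the table. Expression was measured on 12 Clariom S human microarrays of MM.1S, a human multiple myeloma cell line that responds to glucocorticoids. The arrays fell into 4 groups of 3. The control cells were untreated. The PIM group received PIM447, an inhibitor of the PIM serine/threonine kinases, at 100 nM for 24 h. The Pd group received 200 nM pomalidomide, an immunomodulatory drug that binds cereblon, and 5 nM dexamethasone, a glucocorticoid, for 15 h. The PIM-Pd group received all 3 drugs at those doses for 10 h. Treated cultures were collected at a viability of 74% to 81%. Exposure time therefore changed with the drugs, and the effects of drug and time cannot be told apart. All groups came from 1 cell line, so the values hold for MM.1S and not for myeloma cells in general.

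Growth factor and cytokine receptors signal through RAS, RAF, MEK and ERK, and active ERK induces genes that shut the pathway down again. Dual-specificity phosphatases remove phosphate from the MAP kinases themselves. DUSP6 works on ERK in the cytoplasm, DUSP2, DUSP4 and DUSP5 work in the nucleus, and DUSP10 acts on p38 and JNK. Sprouty and Spred proteins act further upstream, where SPRED1 brings neurofibromin, the RAS GTPase-activating protein encoded by NF1, to the membrane. Because ERK activity drives their transcription, the RNA levels of several of these genes are widely read as a gauge of ERK output, although RNA alone does not measure ERK activity.

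RefSeq gave a promoter for 6 of the 8 genes, in 9 entries, and the 250 bases before each start site were searched on both strands. DUSP4 and DUSP5 had no entry, so no promoter of theirs was searched for any motif. The promoters of EGR1 and SPRED1 are shown because EGR1 is the standard serum-response gene and SPRED1 is a member that changed. Both are from GRCh38.p14, plus strand, 5′ to 3′, at chr5:138465229-138465478 for EGR1 and chr15:38252586-38252835 for SPRED1. Capitals mark CArG boxes, the sites that serum response factor binds.
EGR1: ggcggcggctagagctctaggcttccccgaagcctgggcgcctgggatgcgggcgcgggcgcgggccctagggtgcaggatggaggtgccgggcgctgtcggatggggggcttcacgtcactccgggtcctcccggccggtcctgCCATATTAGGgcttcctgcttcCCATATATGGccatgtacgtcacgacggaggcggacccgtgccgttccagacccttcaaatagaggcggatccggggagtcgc
SPRED1: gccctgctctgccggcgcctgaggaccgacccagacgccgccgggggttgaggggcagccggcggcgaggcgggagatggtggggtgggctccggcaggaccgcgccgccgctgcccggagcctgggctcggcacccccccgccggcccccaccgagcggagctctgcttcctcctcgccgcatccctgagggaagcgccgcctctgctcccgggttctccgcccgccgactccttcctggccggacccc
The EGR1 promoter held 2 CArG boxes, CCATATTAGG at 105 bases and CCATATATGG at 83 bases before the start site, against 1.16% of all 35116 promoters with at least 1. It also held CGTCA, the core of the cyclic AMP response element, at 135 and 66 bases before the start. None of the 7 motifs searched lay in the windows of SPRED1, DUSP6 or DUSP10. The DUSP2 window held the E-box CACGTG at 113 bases before the start, a motif in 6.34% of promoters. One of the SPRY2 windows held CGTCA at 190 bases and the ETS core CCGGAA at 142 bases before the start, motifs in 21.2% and 14.5% of promoters. No window held the palindromic glucocorticoid response element (0.327% of promoters), the AP-1 site TGANTCA (6.57%) or the EGR site GCGTGGGCG (0.72%). A match says only that the letters are present.

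Replicate arrays of a group correlated at r = 0.987 to 0.993 over all genes, and arrays of different groups at 0.977 to 0.992. The glucocorticoid targets TSC22D3, the GILZ gene, and FKBP5, a chaperone of the glucocorticoid receptor, were higher in both groups that received dexamethasone, TSC22D3 by 2.49 (limma, adjusted p = 7.55e-06) in Pd and 2.82 (adjusted p = 1.42e-06) in PIM-Pd on the log2 scale. Of the other glucocorticoid-response genes with a symbol, KLF9 was called higher in PIM-Pd only, and SGK1, a kinase gene that glucocorticoids induce in many cells, differed by -0.59 in Pd (adjusted p = 0.232) and -0.51 in PIM-Pd (adjusted p = 0.276). The plasma cell markers CD38, IRF4 and SLAMF7 averaged 8.58, 9.46 and 9.76 log2 units, against a median of 4.843 over all values, and the T cell marker CD3E averaged 4.32. These are the marker genes that could be named, 4 of 21. They and the glucocorticoid-response genes had a symbol only because the study lists them as changed in these same samples. Their values are therefore a description and no independent check. A smaller share of cells expressing a gene and less of its RNA per cell cannot be told apart in such bulk samples.

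Which brakes differed between Pd and untreated cells? DUSP4 and SPRED1 were higher in Pd cells than in untreated cells, by 1.69-fold and 1.49-fold. The other 6 members did not pass the test. Thus 2 of 8 members were called higher (adjusted p under 0.05), where 3.48% of all genes were, and none was called lower, where 1.94% of all genes were. The median log2 difference of the 8 members was 0.12, beside -0.01 over all genes. Value ranges of the Pd and control arrays stood apart for 4 members, as they did for 24.7% of all genes.

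DUSP4 encodes a nuclear phosphatase of ERK and JNK. Its log2 values were 8.36, 8.49 and 8.57 in control, 8.40, 8.41 and 8.37 in PIM, 9.26, 9.17 and 9.27 in Pd, and 8.90, 8.73 and 8.97 in PIM-Pd. Every Pd array lay above every other array, the PIM-Pd arrays lay between Pd and control, and the PIM arrays fell inside the control range. The rise in Pd was 0.76 on the log2 scale (SE 0.10, 95% interval 0.53 to 0.98, limma adjusted p = 0.000537), and within the 3 experiments it was 0.89, 0.67 and 0.70. It was called in all 18 alternative fits, with a difference of 0.70 to 0.80, but lay below a 2-fold minimum, as did every member difference.

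SPRED1 showed the other rise. Its log2 values were 7.05, 7.02 and 6.86 in control, 7.40, 7.48 and 7.28 in PIM, 7.65, 7.45 and 7.55 in Pd, and 7.49, 7.42 and 7.40 in PIM-Pd. All 9 treated arrays lay above the 3 control arrays, and the ranges of neighbouring treated groups overlapped. The difference of Pd from control was 0.57 (SE 0.11, 95% interval 0.34 to 0.80, limma adjusted p = 0.00496), with 0.61, 0.42 and 0.69 within the experiments. It was called in all 18 alternative fits.

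DUSP6, the cytoplasmic ERK phosphatase, varied most among the members between arrays of a group. It gave 5.65, 6.41 and 6.33 in control, 5.71, 6.34 and 6.46 in PIM, 6.87, 6.52 and 6.88 in Pd, and 6.29, 5.98 and 6.52 in PIM-Pd. Pd arrays were all above control arrays, by a gap of 0.11 between the nearest ones, while PIM arrays spread over the control range and beyond its upper end. The difference of Pd from control was 0.63 (SE 0.22, 95% interval 0.15 to 1.10, limma adjusted p = 0.134) and was not called. Within the 3 experiments it was 1.22, 0.11 and 0.55, so it was unequal between them. Without control replicate 1 it was 0.39, with an adjusted p of 0.485.

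DUSP5, the nuclear phosphatase specific for ERK, had log2 values of 10.26, 10.39 and 10.33 in control and 10.39, 10.41 and 10.40 in Pd. The ranges overlapped at their edge, and the difference was 0.07 (95% interval -0.20 to 0.35). DUSP2, a nuclear phosphatase first known from activated lymphocytes, went the other way, with 5.86, 5.65 and 5.59 in control, 5.86, 5.40 and 5.81 in PIM, 5.28, 5.57 and 5.43 in Pd, and 5.67, 5.23 and 5.58 in PIM-Pd. Its Pd arrays lay just below the control arrays, by a gap of 0.016, and the difference of -0.27 (95% interval -0.60 to 0.05, limma adjusted p = 0.406) was not called.

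DUSP10, SPRY2 and EGR1 were dim on these arrays, with every value below the median of 4.843. EGR1 gave 4.22, 4.20 and 4.25 in control, 4.15, 4.28 and 4.28 in PIM, 4.11, 4.25 and 4.08 in Pd, and 4.53, 4.43 and 4.13 in PIM-Pd. Its groups overlapped, with the highest values in PIM-Pd. DUSP10 gave 4.13, 4.14 and 4.23 in control, 4.35, 4.37 and 3.84 in PIM, 4.28, 4.18 and 4.23 in Pd, and 4.49, 4.25 and 4.13 in PIM-Pd. SPRY2, which restrains receptor signalling to RAS, gave 3.08, 3.30 and 3.24 in control, 3.27, 3.27 and 3.54 in PIM, 3.5, 3.32 and 3.27 in Pd, and 3.03, 3.40 and 3.15 in PIM-Pd. All groups of both genes overlapped with control. The differences of Pd from control were 0.07 for DUSP10, 0.16 for SPRY2 and -0.08 for EGR1, each with an interval that includes 0. At such signal a change in these genes may not have been measurable, and the files used here gave no detection call.

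**Figure D1:**
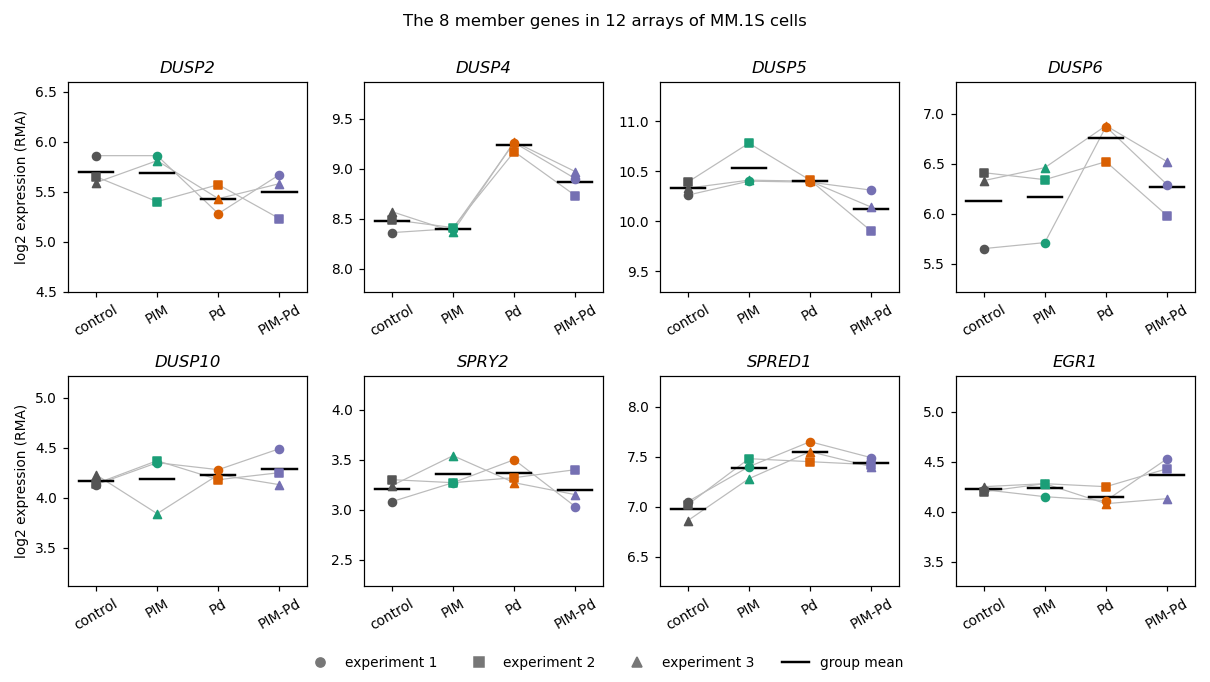
Each panel plots the log2 expression (RMA, vertical axis) of 1 gene in control, PIM, Pd and PIM-Pd cells. Symbols stand for the 3 experiments, grey lines join arrays of 1 experiment and black bars are group means; the DUSP4 points of Pd stand above all others, and all treated SPRED1 points stand above the controls.

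Did any member differ from control with PIM447 alone? None of the 8 members passed the test, and neither did any other gene (0% called by limma, also with the replicate number as a block and without any single array), although 1098 genes and 1 member had an unadjusted p under 0.05. That member was SPRED1, which stood above control in every experiment, by 0.35, 0.46 and 0.42. Its difference of 0.41 (1.33-fold, 95% interval 0.18 to 0.64, unadjusted p = 0.00172, limma adjusted p = 0.666) did not survive the adjustment over all genes. Ranges lay wholly above control for SPRED1 and DUSP5, 2 of 8 members, beside 5.99% of all genes.

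DUSP5 measured 10.40, 10.78 and 10.41 with PIM447, just above the control arrays by a gap of 0.011. The difference of 0.20 had a 95% interval of -0.07 to 0.48. DUSP4 differed from control by -0.09 (95% interval -0.31 to 0.14) and DUSP6 by 0.04 (-0.44 to 0.51), so a rise of DUSP4 as large as that in Pd lay outside its interval with PIM447. The median over the members was 0.03, beside 0.01 over all genes.

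With the 3 drugs together DUSP4 and SPRED1 were again higher than in control, by 1.31-fold and 1.37-fold. Thus 2 of 8 members were called higher, beside 4.42% of all genes, and none lower, beside 5.02%. Ranges stood apart for these 2 members, beside 24.7% of all genes. The members' median was 0.13, beside 0.01 over all genes.

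For DUSP4 the difference of PIM-Pd from control was 0.39 (SE 0.10, 95% interval 0.17 to 0.62, limma adjusted p = 0.0287), and the PIM-Pd arrays lay above the controls by at least 0.16. The call was close to the threshold. It was lost without control replicate 1 or 2 and without PIM-Pd replicate 1 or 3, with the 2 groups fitted alone (adjusted p = 0.0784) and with equal array medians (0.0504), while the difference stayed at 0.33 to 0.46. SPRED1 differed from control by 0.46 (SE 0.11, 95% interval 0.23 to 0.69, limma adjusted p = 0.0129), a call lost only without control replicate 3, where the adjusted p was 0.0691.

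DUSP6 in PIM-Pd overlapped with control, with a difference of 0.14 (95% interval -0.34 to 0.61). DUSP5 measured 10.31, 9.90 and 10.14, of which 1 array lay inside the control range and the others below it, and its difference was -0.21 (95% interval -0.49 to 0.06). DUSP2 differed by -0.21 (-0.53 to 0.12). EGR1 differed by 0.14 (-0.11 to 0.39). None of these was called, and the dim genes DUSP10 and SPRY2 differed by 0.12 and -0.01.

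**Figure D2:**
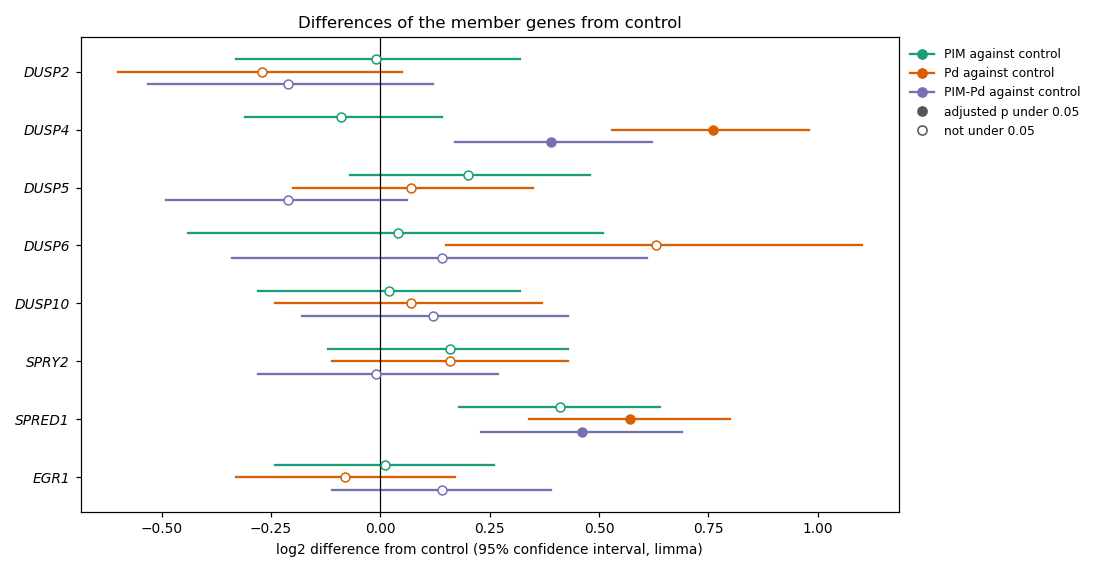
Points give the limma log2 difference from control (horizontal axis) of each gene in PIM, Pd and PIM-Pd cells, lines the 95% confidence interval, and filled points an adjusted p under 0.05. Filled points are seen for DUSP4 and SPRED1 in Pd and PIM-Pd.

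The triple combination was then set against its parts. Against Pd, DUSP4, DUSP5 and DUSP6 each lay lower in the PIM-Pd arrays, with ranges that did not overlap. That is 3 of 8 members, beside 7.79% of all genes, but none passed the adjusted test, as only 14 genes did (0.0791%). All 3 had an unadjusted p under 0.05, as did 1518 of all 17710 genes. The DUSP4 difference was -0.36 (95% interval -0.59 to -0.14, unadjusted p = 0.0035, limma adjusted p = 0.305). For DUSP6 it was -0.49 (-0.97 to -0.02, adjusted p = 0.565), with ranges apart by 0.00013 only, and for DUSP5 -0.28 (-0.56 to -0.01, adjusted p = 0.566). Within the experiments the DUSP6 difference was -0.58, -0.54 and -0.36. The nuclear phosphatase gene DUSP2 did not share this, with a difference from Pd of 0.07 (95% interval -0.26 to 0.39) and overlapping ranges. SPRED1 differed from Pd by -0.11 (95% interval -0.34 to 0.11).

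Against PIM447 alone, DUSP4 was higher with the 3 drugs by 0.48 (1.39-fold, SE 0.10, 95% interval 0.25 to 0.70, limma adjusted p = 0.014). It was the only 1 of 8 members called, beside 2.95% of all genes called higher and 2.71% called lower, and the call was lost with the 2 groups fitted alone (0.0775) and without PIM-Pd replicate 3 (0.0627). DUSP5 lay lower by 0.42 on the log2 scale (difference -0.42, 95% interval -0.69 to -0.14, limma adjusted p = 0.0785), with all PIM-Pd arrays below all PIM arrays. It was not called, but passed with an intensity trend and robust prior (0.0391) and without PIM-Pd replicate 1 (0.0479). Ranges stood apart for these 2 members, beside 17.8% of all genes.

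Additivity on the log2 scale asks whether the difference of PIM-Pd from Pd equals the difference of PIM from control. Exposure times differed between these groups, so a deviation cannot be assigned to the drugs rather than to time. No member deviated from additivity by the adjusted test, which called 3 genes in all (0.0169%). At an unadjusted p under 0.05 stood 2 members and 1033 genes. SPRED1 gave -0.52 (95% interval -0.84 to -0.20, unadjusted p = 0.00365, limma adjusted p = 0.652), and DUSP5 gave -0.49 (-0.88 to -0.10, adjusted p = 0.816). The members' median was -0.30, beside -0.01 over all genes. Since the comparisons share control, PIM, Pd and PIM-Pd arrays, these values are not separate evidence.

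**Figure D3:**
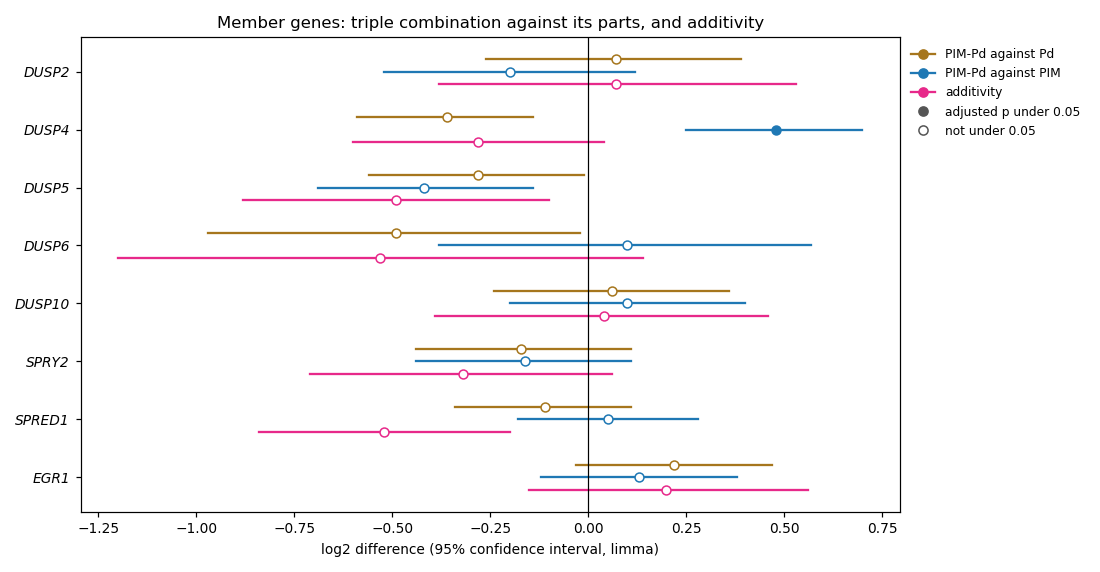
Points give the limma log2 difference (horizontal axis) of PIM-Pd from Pd, of PIM-Pd from PIM, and the deviation from additivity for each gene, lines the 95% confidence interval, and filled points an adjusted p under 0.05. The only filled point is DUSP4 in PIM-Pd against PIM.

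Other genes of the pathway were described from lists of known genes. A symbol was available for 28 of their 111 genes, and only because the study lists those genes as changed in these same samples. Their calls and directions are therefore no independent evidence. Counts of calls among them say nothing about the listed genes without a symbol. Of the 5 other Sprouty and Spred genes, 3 could be named, and all 3 were called higher in Pd, 2 of them also in PIM-Pd. Over all genes, 3.48% were called higher in Pd and 4.42% in PIM-Pd. SPRY1 rose most, with 4.85, 5.09 and 5.64 in control, 5.21, 5.27 and 6.17 in PIM, 6.99, 6.87 and 7.10 in Pd, and 5.93, 6.26 and 7.28 in PIM-Pd. Pd and PIM-Pd arrays all lay above the control arrays. The rise was 1.79 in Pd (3.46-fold, limma adjusted p = 0.00309), called in all 18 alternative fits, and 1.29 in PIM-Pd (adjusted p = 0.0152), lost without control replicate 1 or 2 or PIM-Pd replicate 3. With PIM447 alone it differed by 0.36 (adjusted p = 0.896).

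SPRED2 was higher by 0.60 in Pd (limma adjusted p = 0.0383), a call lost in 7 of 18 alternative fits, among them leaving out any single control or Pd array, and differed by 0.39 in PIM-Pd (adjusted p = 0.171). SPRY3, which is dim, was higher by 0.83 in Pd (adjusted p = 0.0469) and 0.80 in PIM-Pd (adjusted p = 0.0378), calls lost in 9 and 7 of 17 alternative fits, including without any single control array. Of the 5 other MAP kinase phosphatases, DUSP7 alone could be named. It encodes a cytoplasmic ERK phosphatase and differed from control by -0.65 in Pd (adjusted p = 0.115) and -0.58 in PIM-Pd (adjusted p = 0.13). With the replicate number as a block both passed (0.0392 and 0.0459). Between PIM-Pd and Pd, DUSP7 differed by 0.07 (limma adjusted p = 0.96), with overlapping ranges.

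**Figure D4:**
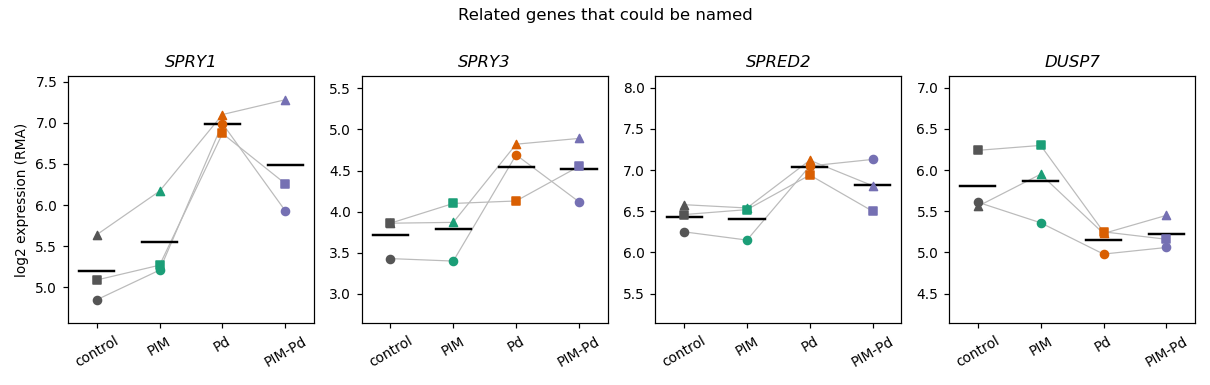
Each panel plots the log2 expression (RMA, vertical axis) of 1 related gene in the 4 groups. Symbols and lines are as in the plot of the 8 members, and SPRY1 in Pd cells, at 6.87 to 7.10, stands above all control arrays.

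Further along the pathway, the RAS-RAF-MEK-ERK list had 5 of 24 genes with a symbol, again only those the study lists as changed. Of these, 2 were called higher and 1 lower in both Pd and PIM-Pd. Over all genes, 3.48% were called higher and 1.94% lower in Pd, and 4.42% and 5.02% in PIM-Pd. NF1, the partner of SPRED1, was higher by 0.94 in Pd (limma adjusted p = 0.000382) and 0.90 in PIM-Pd (adjusted p = 0.00038). MAP2K1, which encodes the ERK kinase MEK1, was higher by 0.56 and 0.61. RPS6KA3, which encodes the ERK substrate RSK2, differed by -0.42 and -0.62, and its call in Pd was lost without any single control or Pd array.

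Of 30 ERK-responsive transcription factor and output genes, 5 had a symbol. In Pd 1 was called higher and 2 lower, beside 3.48% and 1.94% of all genes. In PIM-Pd 2 were called higher and 3 lower, beside 4.42% and 5.02%. The study had listed these 5 as changed, so the counts say nothing about the other genes of the list. The ETS-family repressor gene ELK3 was higher by 0.68 and 0.78, with the Pd call lost without control replicate 1 or 2 or Pd replicate 2. ETS1 differed by -0.96 and -1.45, called in all 18 alternative fits of each comparison. MYC was called lower in PIM-Pd (-0.85, limma adjusted p = 0.00204) and differed by -0.44 in Pd (adjusted p = 0.109, and 0.0475 with the replicate block). The survival gene MCL1 was called higher in PIM-Pd (0.87, limma adjusted p = 0.000728). In Pd it differed by 0.47 (adjusted p = 0.0516), with every Pd array above every control array, and passed in 7 of 18 alternative fits. CCND1, the cyclin D1 gene, differed by -0.70 and -0.62, and both calls were lost without control replicate 1 or 3, among others.

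Among the p38 and JNK genes, 5 of 17 had a symbol. MAP3K5, which encodes the stress kinase ASK1, was higher by 1.62 in Pd (limma adjusted p = 8.26e-05) and 1.80 in PIM-Pd (adjusted p = 2.89e-05). Another 3, MAP2K7, MAPK12 and MAPKAPK3, were called lower in PIM-Pd at -0.58, -0.47 and -0.45, beside 5.02% of all genes. Their calls were lost in 8, 7 and 4 of 18 alternative fits. The receptor list had 2 of 10 genes with a symbol. IL6ST, which encodes the gp130 subunit of the interleukin 6 receptor, was higher by 0.58 and 0.54, and INSR, the insulin receptor gene, by 0.66 in PIM-Pd. Of 13 other brakes, 3 had a symbol. RASA3, a RAS GTPase-activating protein gene, was higher by 0.44 in Pd and 0.38 in PIM-Pd, calls lost in 4 and 8 of 18 alternative fits. ERRFI1, which is dim, encodes an inhibitor of the EGF receptor. It differed by -0.59 in PIM-Pd (limma adjusted p = 0.0476). That call was lost in 10 of 17 alternative fits, namely 9 that left out 1 array and the fit of the compared groups alone. Of the glucocorticoid-response list, 4 of 7 genes had a symbol, with 2 called higher in Pd and 3 in PIM-Pd, beside 3.48% and 4.42% of all genes. In PIM-Pd KLF9 was higher by 0.55, a call lost in 5 of 18 alternative fits. In Pd KLF9 differed by 0.32 (adjusted p = 0.284). None of the genes on these lists was called with PIM447 alone.

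The genes most like DUSP4 over the 12 arrays were DSE (Pearson r = 0.97), PLA2G4C (0.966) and HBEGF (0.961). HBEGF, a ligand of the EGF receptor, was higher by 1.00 in Pd (limma adjusted p = 0.000168). It was picked for following DUSP4, which was highest in Pd, so its rise there is no separate finding. Nearest to SPRED1 were ENSG00000162923 (0.909), which had no symbol here, PLAC8 (0.908) and CTNND1 (0.907), the p120 catenin gene. The 12 points share 4 treatment groups, and the correlations are given as a description.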

How the data were processed

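Values were used as deposited: log2 expression made by the authors with RMA (oligo 1.44.0, R 3.5.0) from Clariom S arrays with a custom probe annotation by Ensembl gene. Arrays have no read depth, and the 3 arrays per group limit the precision. All 12 arrays were fitted together with limma 3.58.1 (R 4.3.3; 8 residual degrees of freedom), p-values were adjusted by Benjamini-Hochberg over 17710 genes, and a gene was called at adjusted p under 0.05. The members, lists and tests were chosen with earlier results of these data known. Member IDs came with the gene set, and other symbols from ID and symbol pairs in the study's supplementary lists (1909 IDs); those lists' values were not used. All members were named, with the called genes of each list (at most 6) and the 3 genes most correlated with each called member. The labels number the biological replicates of each group, and the paper names 3 independent experiments. Arrays with the same number were taken as the same experiment. Deviations from the group mean correlated at -0.101 to 0.303 (median 0.097) between same-numbered arrays. Between different-numbered arrays they correlated at -0.351 to 0.203 (median -0.044). The fit was tried on simulated data with independent normal noise and changes in the Pd group only. That trial leaves out any correlation between same-numbered arrays. Alternatives were the replicate block, fits of the compared groups alone, an intensity trend with robust prior, equal array medians, quantile normalization, a filter on dim genes, a 2-fold minimum and leaving out each array. The study tested with SAM; it was not used here. The control's exposure time was not given in the sources used here.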

Additional observations from a re-analysis of the deposited data

How the results depend on the processing

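No member difference that was called changed sign under any alternative. Of 846 member values in alternative fits without a fold minimum, 835 kept their side of the threshold, 9 lost a call and 2 gained one. Leaving out each array in turn gave 497 to 1049 called genes for Pd against control (960 with all arrays), 1096 to 1771 for PIM-Pd against control (1671), 2 to 15 for PIM-Pd against Pd (14), 648 to 953 for PIM-Pd against PIM (1003) and 0 to 3 for additivity (3); of the members, 1 to 2 were called for PIM-Pd against control and 0 to 2 for PIM-Pd against PIM. A 2-fold minimum left 191, 255, 1 and 173 genes in the first 4 of these comparisons and 0 members in any. With the compared groups fitted alone, PIM-Pd against control called 1 member, PIM-Pd against Pd 1 gene, and PIM-Pd against PIM 455 genes and 0 members. The intensity trend and robust prior called 26 genes for PIM-Pd against Pd and 2 members for PIM-Pd against PIM. Quantile normalization called 8 genes for PIM-Pd against Pd, and equal array medians 1 member for PIM-Pd against control. The cause of these shifts was not tested. With the replicate block, 1181 genes were called for Pd, 1934 for PIM-Pd and 0 for PIM against control, 11 for PIM-Pd against Pd, 1262 for PIM-Pd against PIM and 2 for additivity, and no member's call changed. The dim filter, chosen after the data were seen, dropped DUSP10, SPRY2 and EGR1; the planned filter by olfactory receptor genes was not run, since those genes had no symbol here.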
